A study of Mus musculus with 6 samples.

Results

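The genes described here encode receptors, binding proteins and enzymes of the retinoic acid pathway, with a classical target gene, and were chosen by name from a list of 10 symbols. A row of the expression table matched 9 of the 10 symbols (Rara, Rarb, Rarg, Rxra, Rxrb, Crabp2, Cyp26b1, Dhrs3 and Tgm2) out of 16440 genes in all, whereas no row matched Crabp1, whose expression was not analysed here. RNA sequencing was performed on 6 libraries from FVB N/J mice: 3 of normal myeloid progenitors (MPs), the Lin-Sca-1-c-Kit+ cells of bone marrow, and 3 of c-Kit+ acute promyelocytic leukemia (APL) progenitors from the bone marrow of mice repopulated with leukemia. The leukemia arose in transgenic mice in which the hMRP8 promoter, active in myeloid cells, drives a human PML/RARα fusion, and it was labeled with the GFP-expressing retroviral vector MigR1 and passed through syngeneic recipients. The series design calls the 3 libraries of each group biological replicates, but the labels do not say whether each came from a separate mouse, so p-values measure only the spread between these libraries. The labels name no drug treatment and no age for either group.

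Retinol taken up by a cell is oxidized to retinal and then to retinoic acid, which retinaldehyde dehydrogenases make and Cyp26 enzymes break down. Retinoic acid binds the receptors RARα, RARβ and RARγ, which pair with a retinoid X receptor (RXR) on DNA and turn from recruiting corepressors to recruiting coactivators when the ligand is bound. In the myeloid lineage this pathway drives granulocytic maturation, and in APL one RARα allele is fused to PML, which makes it the target of treatment with all-trans retinoic acid.

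A retinoic acid response element with core motifs 5 bases apart is shown first, since a match to it set apart 2 genes of the pathway. A pair of core motifs (AGGTCA or GGGTCA or AGTTCA or GGTTCA) in the same direction and 5 bases apart, on either strand, was searched for in RefSeq promoter windows of build GRCm38.p6, from 250 bases before to 50 bases after each start. The pair was found in 32 of 32851 windows (0.0974%). It was present in 1 of the 16 windows of 8 listed genes (Crabp1 among them), that of Rarb, and in 1 of 102 windows of 76 other retinoid pathway genes, that of Cyp26a1. Crabp2 and Tgm2 had no window. Both sites are written 5′ to 3′ on the strand of the gene, with the core motifs in capitals. The Rarb site lies at chr14:16575507-16575535 on the minus strand, with the repeat at -53 to -37 from the start, and the Cyp26a1 site lies at chr19:37697770-37697798 on the plus strand, with the repeat at -32 to -16. The Cyp26a1 core motifs match on the opposite strand, where each reads AGTTCA.
Rarb: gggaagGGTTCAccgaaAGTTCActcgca
Cyp26a1: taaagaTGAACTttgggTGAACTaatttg

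Pairs of the core motifs 1 and 2 bases apart were also searched for in the same windows. The pair 2 bases apart was in 88 of 32851 windows (0.268%), with none in the listed or other pathway genes. The pair 1 base apart was in 73 windows (0.222%), none of the listed genes, and 1 window of the other pathway genes, that of Bco1. A different motif was searched for as well. A GC box (GGGCGG on either strand) was found in 11714 of the 32851 windows (35.7%), in 9 of the 16 windows of the listed genes, and in at least 1 window each of Rara, Rarg, Rxra and Rxrb, but not in that of Rarb. The second windows of Rarg and Rxra held none, and the Cyp26a1 window held 2 GC boxes beside its response element. The 250 bases before the first Rarg start, chr15:102257523-102257772 on the minus strand, are shown because Rarg was the RAR gene that rose in APL. The capitals mark 3 GC boxes, the first pair of which share a base. These matches describe the letters only and no binding was measured.
Rarg: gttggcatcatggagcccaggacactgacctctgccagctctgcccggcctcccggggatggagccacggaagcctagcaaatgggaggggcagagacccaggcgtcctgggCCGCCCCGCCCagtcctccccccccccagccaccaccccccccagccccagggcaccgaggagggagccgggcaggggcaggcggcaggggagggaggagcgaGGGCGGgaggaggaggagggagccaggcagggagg

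The values tested are the deposited estimated fragments per gene after scaling between libraries, here called scaled fragments. Before scaling, the libraries held 22976902 to 26932324 fragments in MPs and 20608736 to 28382773 in APL. Levels of different genes were compared only as FPKM, which is per length. Fold changes are on the log2(scaled fragments + 1) scale with limma, and a gene was called when the adjusted p was under 0.05 and the fold change was over 1.5. Kit, the receptor that both sorts selected, was present in every library and fell in APL, from 10668 ± 272 to 5929 ± 132 scaled fragments (SD, n = 3 each, log2 fold change -0.85, adjusted p = 5.89e-06). Ly6a, which encodes the Sca-1 antigen gated out of the MPs, was low in both groups, at 1.36 ± 0.355 FPKM in MPs and 2.18 ± 0.175 FPKM in APL (SD, n = 3 each). Its call as higher in APL (adjusted p = 0.0434) was lost without MP replicate 1 or any 1 of the APL libraries. Cd34, a progenitor marker listed with Kit and Ly6a but not named in either sort, fell from 94.5 FPKM in MPs to 1.15 FPKM in APL (log2 fold change -6.31, adjusted p = 5.63e-09). The 2 sorted populations thus differed in this marker.

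Of the listed genes, 8 passed the filter on low values and were tested. In APL, Tgm2, Dhrs3 and Rara fell and Rxra and Rarg rose, whereas Rarb, Rxrb and Cyp26b1 did not pass the test. Across all 14595 genes tested, 24.4% were called lower and 21.7% were called higher, so that 3 and 2 of 8 genes are close to the shares of the whole table. The values of the groups did not overlap for 5 of the 8 genes, beside 70.9% of all genes tested. Their log2 fold changes had a median of -0.73, beside -0.10 for the whole table.

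**Figure D1:**
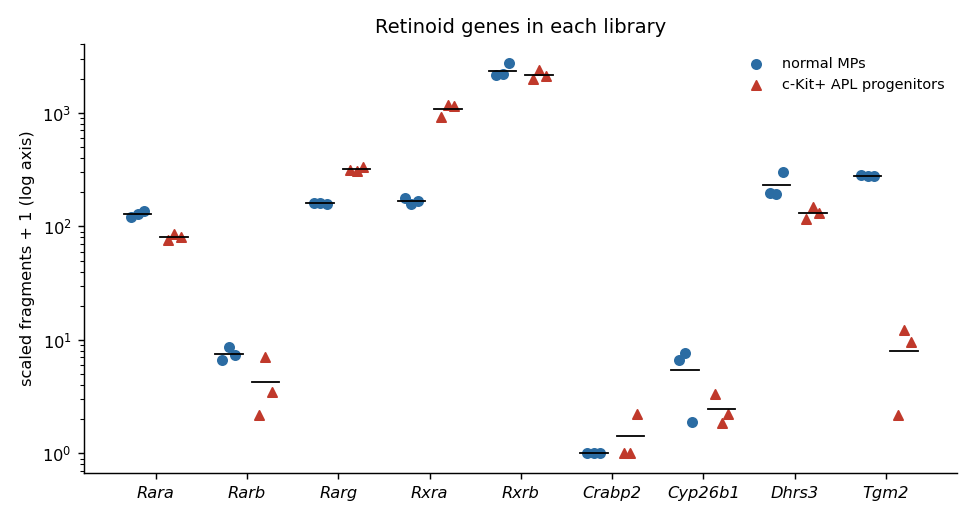
Scaled fragments plus 1 (log axis) for the 9 genes with a row, where each point is 1 library (circles, MPs; triangles, c-Kit+ APL progenitors) and each line is the mean of 3. Rxra and Tgm2 show the widest gaps between the groups, at 167 against 1082 and 279 against 7.03 scaled fragments, and Crabp2 is at 0 in 5 of the 6 libraries.

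Among the receptors that bind retinoic acid, Rara fell and Rarg rose. Rara, the isotype fused to PML in the human disease, had 119, 129 and 134 scaled fragments in the MP libraries and 74.4, 84.1 and 80.2 in the APL libraries. Each APL library was below each MP library. This was a 1.59-fold decrease (log2 fold change -0.67, SE 0.15, adjusted p = 0.00384), and the call was lost with quantile normalization (-0.42) and with FPKM plus 1 (-0.35). Rara lies at chr11:98937696-98974942, and reads of the human RARα part of the transgene that could align to it cannot be told apart from mouse reads in these values. The row overlaps 2 RefSeq genes that have no row of their own.

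Rarg, the isotype known for its part in keeping hematopoietic stem cells undifferentiated, had 160, 160 and 157 scaled fragments in MPs and 312, 308 and 330 in APL. Replicates lay close together in both groups, and the increase was 1.98-fold (log2 fold change 0.99, SE 0.11, adjusted p = 4.98e-05). Rarg lies on chromosome 15 (102234940 to 102257483), where genes as a whole were higher in APL: the median log2 fold change of its 563 tested genes was 0.46, a shift of 0.58 from the genes of the other chromosomes, and 41.7% of them were called higher. Rarg stood 0.53 above the median of its chromosome, and 158 of the 563 genes (28.1%) had a larger log2 fold change. Its change therefore lies within the range common on that chromosome. Chromosome 8 was shifted by 0.61, and the remaining chromosomes by -0.13 to 0.05. None of the other 7 genes tested lies on chromosome 8 or 15.

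**Figure D2:**
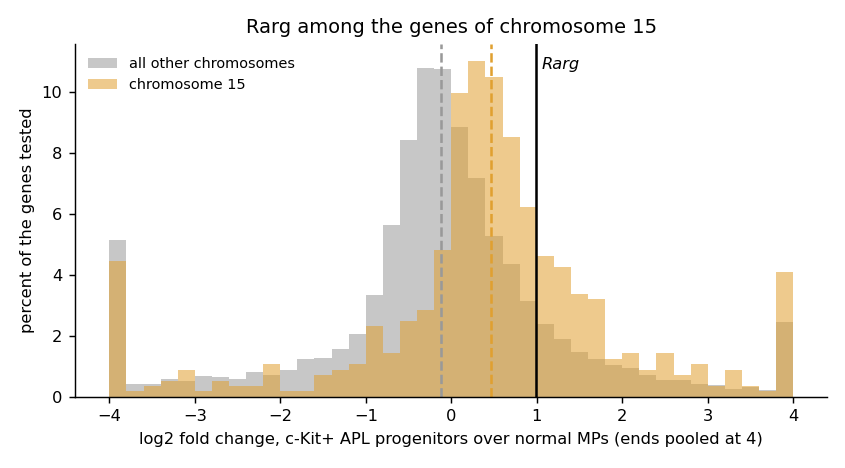
Distribution of log2 fold changes (APL over MPs) as the percent of genes tested on chromosome 15 and on all other chromosomes, with values beyond 4 pooled in the end bins. Dashed lines are medians, and the solid line marks Rarg at 0.99, to the right of the chromosome 15 median of 0.46.

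Rarb, itself a retinoic acid target through the site printed above, was near the limit of detection. It had 5.62, 7.62 and 6.31 scaled fragments in MPs and 1.18, 6.07 and 2.47 in APL, from 21 and 10 fragments before scaling. The second APL library overlapped the MPs. The log2 fold change was -0.99 (95% interval -2.03 to 0.05, adjusted p = 0.0845), which did not pass the test, and without that library it was -1.44 with adjusted p = 0.0199. Whether Rarb is called thus depends on 1 library at this depth.

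The RXR genes encode the partners with which RARs bind DNA. Rxra, an RXR with known roles in myeloid cells, had 177, 157 and 166 scaled fragments in MPs and 921, 1170 and 1155 in APL. The lowest APL library was several times above the highest MP library. The increase was 6.43-fold (log2 fold change 2.68, SE 0.12, adjusted p = 1.75e-07), the call held in all 18 alternative settings, and the log2 fold change ranged from 1.99 to 2.80. Rxra lies at chr2:27677201-27763319, and no other gene of the table or of RefSeq overlaps it.

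Rxrb, which is expressed in most tissues, had 2135, 2197 and 2718 scaled fragments in MPs and 1975, 2362 and 2088 in APL. The groups overlapped, and the log2 fold change of -0.13 (95% interval -0.38 to 0.12, adjusted p = 0.318) did not pass the test. The interval leaves room for a decrease of up to 0.38 on the log2 scale. Rxrg, the RXR of muscle and brain, had 3.75, 0.952 and 3.61 scaled fragments in MPs, was at 0 in the 3 APL libraries, and was below the filter.

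Per length, the changes of single receptors altered the makeup of each family, as counted by the rows of the mouse genes. Transcripts of the human PML/RARα transgene were not measured apart. The RAR shares and sums of APL therefore do not give the part of all RARα transcripts. Rarg supplied 59.1% ± 1.74 of the summed RAR FPKM in MPs and 82.2% ± 1.98 in APL (SD, n = 3 each). Rara supplied 37.1%, 38.9% and 40.2% in the MP libraries and 16.4%, 18.7% and 16.2% in the APL libraries, and the groups did not overlap (exact permutation test, two-sided, p = 0.1, the smallest value that 3 against 3 libraries allow). The ratio of Rarg to Rara FPKM was 1.53 ± 0.108 in MPs and 4.84 ± 0.490 in APL (SD, n = 3 each). The summed RAR FPKM was 3.92 ± 0.114 in MPs and 5.69 ± 0.206 in APL (SD, n = 3 each).

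Rxra supplied 3.64%, 3.15% and 2.77% of the summed RXR FPKM in MPs and 17.6%, 18.5% and 20.2% in APL (exact permutation test, two-sided, p = 0.1, again the smallest possible). Rxrb remained the most abundant RXR transcript in both groups, at 96.7% ± 0.491 in MPs and 81.2% ± 1.33 in APL (SD, n = 3 each). The summed RXR FPKM was 38.3 ± 3.76 in MPs and 41.6 ± 3.69 in APL, with overlapping libraries (SD, n = 3 each, exact permutation test, two-sided, p = 0.3). By the rows of the mouse genes, RXR transcripts together outnumbered RAR transcripts per length 9.78 ± 1.12 times in MPs and 7.32 ± 0.661 times in APL (SD, n = 3 each).

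**Figure D3:**
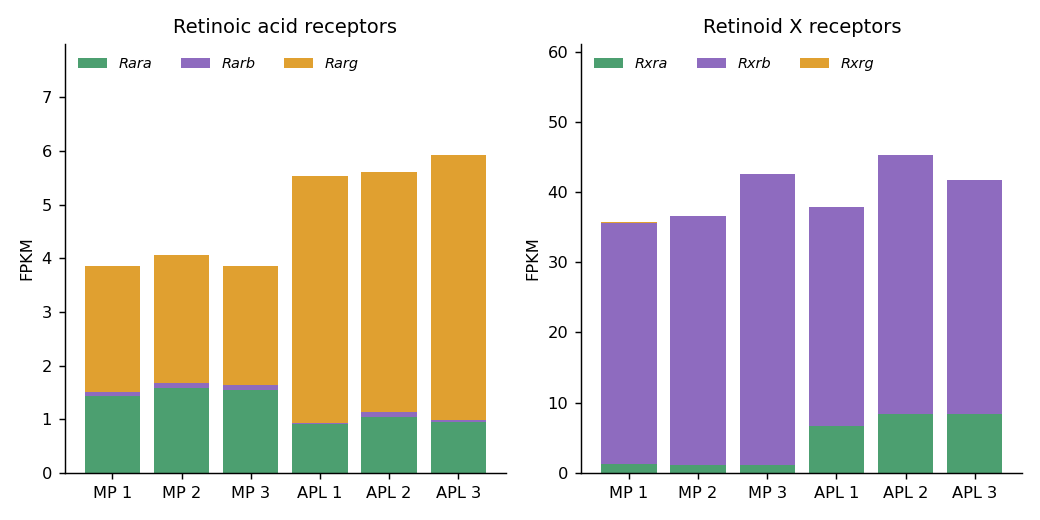
Stacked FPKM of the RAR genes (left) and RXR genes (right) in each library of normal MPs and c-Kit+ APL progenitors (APL), with axes from 0. Rarg makes up 82.2% of the FPKM of the mouse RAR genes in APL against 59.1% in MPs, and Rxra 18.8% of the RXR FPKM against 3.19%.

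Ordered by FPKM, the MPs had Rxrb (37.0 ± 3.80), Dhrs3 (5.85 ± 1.47), Tgm2 (2.66 ± 0.0850), Rarg (2.32 ± 0.0841), Rara (1.52 ± 0.0779), Rxra (1.21 ± 0.0776), Rarb (0.0852 ± 0.0133) and Cyp26b1 (0.0378 ± 0.0265), with Crabp2 at 0 (SD, n = 3). No neighbours in this order overlapped between libraries. In APL the order was Rxrb (33.8 ± 2.86), Rxra (7.82 ± 1.01), Rarg (4.67 ± 0.234), Dhrs3 (3.40 ± 0.449), Rara (0.970 ± 0.0711), Tgm2 (0.0676 ± 0.0501), Rarb (0.0425 ± 0.0334), Crabp2 and Cyp26b1 (SD, n = 3). The last 4 of these overlapped with their neighbours and could not be ranked.

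Of the listed genes of retinoid binding and turnover, Dhrs3 fell in APL, Cyp26b1 was not called and Crabp2 was below the filter. Dhrs3, a short-chain reductase that returns retinal to retinol and so limits the supply of retinoic acid, had 197, 190 and 303 scaled fragments in MPs and 115, 148 and 130 in APL. The groups did not overlap, but the third MP library stood above the other two. The decrease was 1.72-fold (log2 fold change -0.78, SE 0.20, adjusted p = 0.00761), and without the third MP library it was -0.57, below the fold change required. Dhrs3 lies at chr4:144892827-144927645 and overlaps Vps13d in RefSeq, from which its reads cannot be told apart without strand.

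Cyp26b1, one of the enzymes that break down retinoic acid, had 5.62, 6.66 and 0.902 scaled fragments in MPs and 2.36, 0.867 and 1.23 in APL, from 14 and 4 fragments before scaling. The third MP library lay within the APL range. The log2 fold change was -0.93 (95% interval -2.23 to 0.37, adjusted p = 0.180), and without the third MP library it was -1.56 with adjusted p = 0.0211. Crabp2, which carries retinoic acid to the receptors, was at 0 in the 3 MP libraries and at 0, 0 and 1.23 in APL. This was 1 fragment in all, below the filter and at or under the floor of 3 fragments in both groups, and a difference was not detectable at this depth.

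The decrease of Tgm2 was the largest among the 8 genes tested. Tgm2 encodes transglutaminase 2, an enzyme induced by retinoic acid in maturing myeloid cells. It had 282, 279 and 275 scaled fragments in the MP libraries and 1.18, 11.3 and 8.64 in the APL libraries. All MP libraries were within a few fragments of each other, whereas the APL libraries differed among themselves. The decrease was 43.9-fold (log2 fold change -5.46, SE 0.56, adjusted p = 3.22e-05), from 899 fragments before scaling in MPs and 21 in APL. Without the first APL library the log2 fold change was -4.68, and with FPKM plus 1 it was -1.78. Tgm2 lies at chr2:158116405-158146392 and overlaps no other gene.

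**Figure D4:**
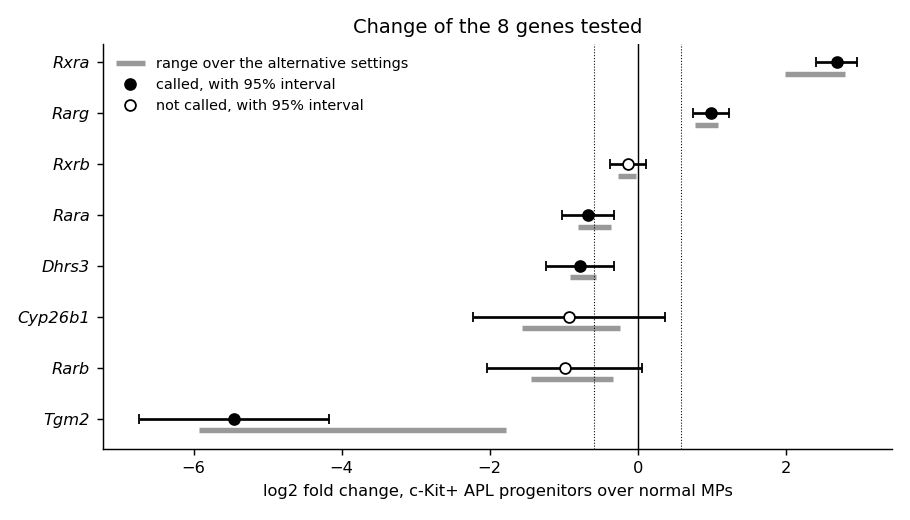
Log2 fold change (APL over MPs) of the 8 genes tested, with 95% intervals (filled, called; open, not called) and, in gray, the range over the alternative settings. Dotted lines mark a fold change of 1.5; Rxra at 2.68 and Tgm2 at -5.46 lie farthest from 0, and the intervals of Rxrb, Cyp26b1 and Rarb include 0.

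Markers of other lineages differed between the sorted populations, and in bulk libraries fewer cells of a type cannot be told apart from less RNA per cell. The erythroid markers were called lower in APL for 6 of 6 tested, with summed FPKM of 341 to 374 in MPs and 37.9 to 47.0 in APL. The megakaryocyte markers were lower for 5 of 6 (68.8 to 104 against 3.53 to 4.83). Mast cell and basophil markers were lower for 4 and higher for 1 of 5 (49.8 to 69.3 against 37.5 to 43.0). Most of that sum in APL was Mcpt8, the 1 that rose (17.4 FPKM in MPs and 38.6 in APL). Cpa3, most abundant of these in MPs, fell (34.0 against 0.786). Promyelocyte markers were higher for 3 of 4 (8378 to 9460 against 22920 to 27383). Monocyte and macrophage markers were lower for 5 and higher for 3 of 9 (42.8 to 51.3 against 54.9 to 57.8). Among 7 mature neutrophil markers 1 was lower and 1 higher (summed FPKM 8303 to 12091 against 36456 to 48216). Most of that sum was S100a8 (8951 FPKM in MPs and 42909 in APL), whereas Ltf fell (132 against 48.4) and the other 5 were not called. Among lymphocyte markers, 2 of 3 were lower (2.17 to 2.77 against 0.175 to 0.325). Stroma and endothelium markers were lower for 3 and higher for 2 of 6 (12.1 to 15.1 against 3.45 to 4.82). Most of the latter sum was Pecam1 (12.2 FPKM in MPs and 3.24 in APL), so it mainly follows that gene. Col1a1 (0.0269 against 0.617) and Lepr (0.0378 against 0.228) rose from low levels. No marker was at 0 in all 3 APL libraries, and the part of these differences in the changes of Tgm2, Dhrs3, Rara, Rarg and Rxra was not tested.

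Other genes of the pathway were grouped by role. Of 97 genes listed, 87 had a row and 73 were tested, of which 20 fell and 22 rose in APL and 31 were not called, beside 24.4% lower and 21.7% higher in the whole table. The groups did not overlap for 55 of the 73, beside 70.9% of all genes tested, and the median log2 fold change was -0.12, beside -0.10. These values are near those of the whole table.

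**Figure D5:**
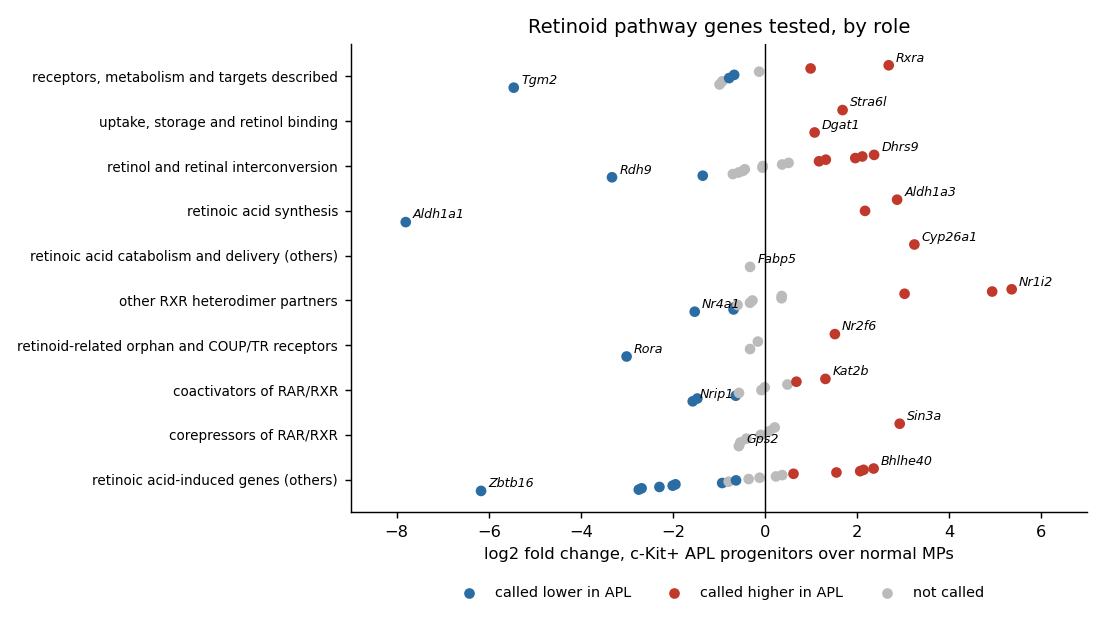
Log2 fold change (APL over MPs) of the pathway genes tested, except 2 that are not shown, in rows by role, colored by call (blue, lower; red, higher; gray, not called), with the extreme genes shown in each row named. Retinoic acid synthesis spans from Aldh1a1 at -7.80 to Aldh1a3 at 2.87. In the corepressor row, which leaves out Nrip1, only Sin3a, at 2.92, was called.

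Genes of uptake and storage were represented by 3 genes tested, of which 1 fell and 2 rose. Dgat1, which can esterify retinol for storage, rose from 457 ± 42.3 to 962 ± 56.8 scaled fragments (SD, n = 3 each, log2 fold change 1.08, adjusted p = 1.24e-05), and it too lies on chromosome 15. Stra6l, listed as 1300002K09Rik, rose by 1.68 on the log2 scale from 6 to 23 fragments before scaling.

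Of 15 genes that interconvert retinol and retinal, 2 fell and 5 rose. Dhrs7 rose from 472 ± 92.4 to 2020 ± 109 scaled fragments (SD, n = 3 each, log2 fold change 2.11, adjusted p = 1.13e-06). Dhrs9 was much lower in level, at 15, 3.81 and 17.1 scaled fragments in MPs and 61.3, 54.6 and 54.3 in APL (log2 fold change 2.37, adjusted p = 0.00183), and without the second MP library its log2 fold change was 1.76. Rdh9 fell from 9.23 ± 2.41 scaled fragments to 0 in each APL library, at least 2.81-fold against the floor. Rdh1 was called lower from 10 and 2 fragments before scaling, and its call was lost without any 1 of the MP libraries or APL replicate 3. Rdh1 and Rdh9 are neighbouring members of 1 gene family, and reads shared between them could have been split.

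Among the genes of retinoic acid synthesis, the main enzyme of MPs was nearly lost from APL. Aldh1a1, a retinaldehyde dehydrogenase of hematopoietic progenitors, had 1505, 1449 and 1689 scaled fragments in MPs and 5.89, 2.60 and 12.3 in APL. The log2 fold change of -7.80 (SE 0.40, adjusted p = 3.94e-07) corresponded to 26.6 ± 2.06 FPKM in MPs and 0.118 ± 0.0831 FPKM in APL (SD, n = 3 each). Reads shared with its near copy Aldh1a7 could affect this value. Aldh1a3 was at 0 in the MP libraries and at 8.25, 6.07 and 4.94 scaled fragments in APL, at least 2.30-fold higher against the floor. Aldh8a1 was called higher from 1 and 13 fragments before scaling (ratio 14.9, 95% counting interval 2.24 to 634).

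The catabolic gene that carries the response element printed above rose in APL. Cyp26a1 had 0, 1.90 and 0.902 scaled fragments in MPs and 16.5, 17.3 and 13.6 in APL, from 3 and 45 fragments before scaling. Every APL library was above every MP library, with a log2 fold change of 3.24 (SE 0.43, adjusted p = 0.000166) and a ratio of 17.2 (95% counting interval 5.52 to 86.6). The level remained low at 0.395 ± 0.0493 FPKM in APL (SD, n = 3), and with FPKM plus 1 the gene was not called. Cyp26c1 had no fragments in MPs and 3 in APL. Fabp5, which carries retinoic acid to another class of nuclear receptors, was abundant at 76.0 ± 10.4 FPKM in MPs and 61.2 ± 4.36 FPKM in APL (SD, n = 3 each) and was not called, since its log2 fold change of -0.33 (adjusted p = 0.0443) was under the fold change required.

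Of 11 other partners of RXR tested, 3 fell and 3 rose. Pparg, the fatty acid receptor of adipocytes and macrophages, had 9.37, 9.52 and 3.61 scaled fragments in MPs and 257, 231 and 237 in APL (log2 fold change 4.93, SE 0.33, adjusted p = 1.89e-06). Nr1i2, the pregnane X receptor of liver, was at 0.937, 0 and 0.902 in MPs and 66.0, 61.5 and 59.2 in APL, from 2 and 175 fragments before scaling (ratio 100.4, 95% counting interval 27.4 to 835, adjusted p = 1.48e-06). Nr4a1, an orphan receptor induced by stimuli, fell from 50.6 ± 18.3 to 16.0 ± 1.48 scaled fragments (SD, n = 3 each, log2 fold change -1.53, adjusted p = 0.00233). Vdr, the vitamin D receptor, fell by 0.69 on the log2 scale (adjusted p = 0.00991), and its call was lost without the third MP library (-0.54) or the second APL library (-0.58). Nr4a1 and Vdr lie on chromosome 15, against whose median their decreases stand.

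Of the retinoid-related orphan, COUP and testicular receptors, 5 were tested, with 2 lower and 1 higher. Rora was at 8.43, 5.71 and 7.21 scaled fragments in MPs and 0 in each APL library, at least 2.17-fold lower. Nr2f6, an orphan receptor that restrains myeloid maturation, rose from 169 ± 12.9 to 493 ± 119 scaled fragments (SD, n = 3 each, log2 fold change 1.52, adjusted p = 5.94e-05) and lies on chromosome 8, which was shifted upward.

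Cofactors of RAR and RXR differed by gene. Among 9 genes listed as coactivators 3 fell and 2 rose. Carm1, an arginine methyltransferase, fell from 2178 ± 32.9 to 786 ± 48.7 scaled fragments (SD, n = 3 each, log2 fold change -1.47, adjusted p = 3.13e-07), and its row overlaps 2 other genes of the table. Nrip1 was listed with them, although it is known as a corepressor that binds the liganded receptors, and it itself responds to retinoic acid. It fell by 1.57 on the log2 scale (adjusted p = 1.81e-06). Kat2b, an acetyltransferase, rose by 1.31 (adjusted p = 3.75e-07) and Ncoa1 by 0.68 (adjusted p = 0.000398) on the same scale, although Ncoa1 was not called when the libraries were set to the same total.

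Among the 7 genes listed as corepressors, which leave out Nrip1, 1 gene was called. Sin3a, the scaffold of a histone deacetylase complex, had 3218, 3527 and 3221 scaled fragments in MPs and 25448, 24423 and 25682 in APL. The increase was 7.59-fold (log2 fold change 2.92, SE 0.07, adjusted p = 1.15e-08), with little spread in either group. A RefSeq lncRNA overlaps the row, and its reads cannot be told apart.

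Of 18 other tested genes listed as induced by retinoic acid, 8 fell and 5 rose, beside 24.4% lower and 21.7% higher in the whole table. Zbtb16, which encodes the zinc finger protein PLZF of undifferentiated progenitors, had 388, 360 and 288 scaled fragments in MPs and 2.36, 3.53 and 6.17 in APL (log2 fold change -6.17, SE 0.30, adjusted p = 2.96e-07). Whether retinoic acid induces Zbtb16 in these cells was not tested. Asb2, a ubiquitin ligase subunit induced in APL cells by retinoic acid, was at 10.3, 4.76 and 3.61 in MPs and 0 in each APL library, at least 1.90-fold lower. In the opposite direction, Cdkn1a, the cell cycle inhibitor p21, rose from 211 ± 18.5 to 932 ± 87.1 scaled fragments (SD, n = 3 each, log2 fold change 2.14, adjusted p = 4.25e-07). Bhlhe40, a transcriptional repressor, had 158, 99.0 and 122 scaled fragments in MPs and 619, 664 and 637 in APL (log2 fold change 2.36, adjusted p = 2.74e-06). Tgm2 was thus nearly lost from APL while Cyp26a1, Cdkn1a and Bhlhe40 were higher, and Rarb was not called. The genes listed as responding to retinoic acid did not move in 1 direction.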

How the data were processed

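Per the labels, total RNA was prepared with a TruSeq kit. The submitters' processing notes name CASAVA 1.8 and TopHat2 2.0.6 with build mm10, whereas the methods of the study name STAR, mm9, HTSeq-count and DESeq2. The tool that made the table is not given in the sources used here. The authors deposited 2 values per gene and library: FPKM, and a signal of estimated fragments scaled between libraries. Divided by the scale of its library, 83.6 to 86.6% of nonzero signal values came within 0.01 of a whole number, so no count test was used. Gene starts matched GRCm38 after adding 1 base.

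Genes that reached a scaled value of 1 in 3 or more of the 6 libraries were tested with limma 3.58.1 (R 4.3.3) on log2(value + 1), and p-values were adjusted by Benjamini-Hochberg across these genes. The script was tested on simulated data. Adjusted p-values are from limma unless an exact test is named. Counting intervals and floors (95%, 3 fragments) cover counting error only. The genes and lists were chosen with earlier results of these data known. Of each pathway list, the text names the 2 called, non-overlapping genes with the largest change in each direction, every catabolism and receptor gene, and Kit and Ly6a, except that values of 2 genes are not reported here. Alternatives covered pseudocounts, filters, scaling, FPKM, a replicate block, the prior and each library left out, and were not summarized for Cd34. Figures were drawn with matplotlib 3.10.9, and counting intervals used scipy 1.17.1. The exact permutation tests went over every split of the 6 libraries into 3 and 3. The annotation and genome supplied as mm9 were not used, and sequences are from RefSeq GRCm38.p6.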

Additional observations from a re-analysis of the deposited data

How the results depend on the processing

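Of 137 values of the listed genes under the alternatives, 132 kept their direction and their side of the threshold, 3 lost the call (Rara with quantile normalization and with FPKM plus 1, Dhrs3 without MP replicate 3) and 2 gained it (Rarb without APL replicate 2, Cyp26b1 without MP replicate 3). None of these, nor of 493 values of the other named genes, changed direction, and 24 of the latter lost the call. With FPKM and a pseudocount of 1, 2205 genes were called lower in place of 3558, and the pathway genes fell to 10 lower and 13 higher in place of 20 and 22. A value of at least 1 in all 6 libraries, which leaves out genes absent from 1 group, gave 12 pathway genes lower. At a fold change over 2, 1 listed gene was lower (Tgm2) and 1 was higher (Rxra), in place of 3 and 2. Leaving out each library in turn gave 3 to 4 listed genes lower and 2 higher, 15 to 21 pathway genes lower and 18 to 22 higher, and 2913 to 3507 genes lower and 2734 to 3256 higher in all.

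Deviations of same-numbered libraries correlated at 0.135, -0.00159 and 0.127 over 11061 genes. Those of differently numbered libraries ranged from -0.277 to 0.197. With 3 libraries in each group, these values cannot decide whether the numbers pair the samples. A replicate block in the fit gave 3589 genes lower and 3164 higher, with 3 listed genes lower and 2 higher, as without it. Setting the libraries to the same total shifted the table's median by -0.13 on the log2 scale and the share of called genes that were lower from 52.9 to 60.8%, whereas quantile normalization (3277 lower, 3567 higher, 47.9%) and median ratio scaling (3268 lower, 3397 higher, 49.0%) turned the balance the other way. By scaled fragments, not per length, the difference between APL and MPs in the Rxra share was 26.8 percentage points in place of 15.6, and that in the Rara share -23.5 in place of -21.7. The planned share of Crabp1 among CRABP transcripts could not be computed. Depth limits Rarb, Cyp26b1, Crabp2 and Rxrg, each with at most 21 fragments in a group.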

Other observations

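A few pathway genes outside the naming rule were chosen after their values were seen. Nr1h3, the oxysterol receptor LXRα and a partner of RXR, was higher in APL at 4.70 FPKM against 0.550 in MPs (log2 fold change 3.03). Retsat, which saturates retinol, was higher at 46.8 FPKM against 18.7 (1.32), and Rdh12, a retinal reductase, at 13.4 FPKM against 5.92 (1.17). Pram1, an adaptor gene regulated by PML/RARα and retinoic acid, was lower at 4.10 FPKM against 16.5 (-2.01). The phospholipid scramblase gene Plscr1, induced by retinoic acid in myeloid cells, was lower at 8.78 FPKM against 34.9 (-1.95). Each passed the limma test at an adjusted p under 0.05 over all genes.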
